A study of Mus musculus with 12 samples.

Results

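Clathrin and its plasma membrane adaptor AP2 form the coat of endocytic pits, and 9 genes of this machinery are described here: Cltc, Clta, Cltb, Ap2a1, Ap2a2, Ap2b1, Ap2m1, Ap2s1 and Picalm. Their members are clusters, short genomic stretches where RNA bound to a protein was recovered. A cluster was taken where its centre lay in the gene body on the strand of the gene. This gave 224 of the 124941 clusters in 3 tables: 84 for Rbm38, 71 for Puf60 with exon 5 and 69 for Puf60 without exon 5. The genes were chosen by measured values, the strong Rbm38 sites of Ap2s1 and Cltc, so the Rbm38 values of these genes are a description. No cluster was centred within 2000 nt outside either end of any of the 9 genes on the same strand.

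The study mapped RNA contacts by iCLIP, crosslinking and immunoprecipitation with sequencing, in N2A cells, a mouse neuroblastoma line. Flag-tagged Rbm38 and 2 isoforms of Puf60, with and without exon 5, were each expressed from a doxycycline-controlled transgene in a Flp-in line. Each protein had 3 CLIP libraries and 1 size-matched input, 12 samples in all. Doxycycline was given at 1 µg/ml, and the cells received 150 mJ/cm2 of ultraviolet light. Induction lasted 24 h for the Rbm38 libraries and for those of Puf60 without exon 5. For Puf60 with exon 5 it lasted 48 h in the CLIP libraries and 24 h in the input, so isoform and induction time cannot be told apart. Each log2 fold of this isoform also sets 48 h against 24 h, so binding and induction time cannot be told apart within it. Whether each line is 1 clone, and whether replicates are separate cultures, is not given in the sources used.

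The heavy chain Cltc and the light chains Clta and Cltb build the clathrin lattice. AP2 is a complex of 4 subunits that links this lattice to the membrane: an alpha subunit (Ap2a1 or Ap2a2) binds membrane lipid and accessory proteins, beta (Ap2b1) binds clathrin, mu (Ap2m1) reads tyrosine-based sorting signals and sigma (Ap2s1) takes part in reading dileucine signals. Picalm is a lipid-binding adaptor that helps assemble clathrin at the membrane. Rbm38, the product of a p53 target gene, is known for contacts with U-rich elements of messenger RNA. Puf60 is a splicing factor known to contact pyrimidine-rich stretches upstream of 3′ splice sites.

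The values are the authors' own: a log2 fold per cluster, read here as CLIP over input because the tables do not state its direction, with raw and adjusted p-values. No values per library are in the tables, so replicate spread and depth are unknown and the authors' adjusted p is the only test per cluster. A cluster is called enriched at an adjusted p under 0.05. Of all clusters with a p, 51.2% were enriched for Rbm38, 39.3% for Puf60 with exon 5 and 36.2% for Puf60 without exon 5. The member clusters include 1 without a p for Rbm38 and 1 for Puf60 with exon 5, counted here as not enriched. Among them, 43 of 84 were enriched for Rbm38 (51.2%) and 27 of 71 for Puf60 with exon 5 (38.0%). For Puf60 without exon 5 it was 17 of 69 (24.6%). The median log2 fold of the enriched member clusters was 2.43, 2.54 and 2.41 in this order of proteins, beside 2.33, 2.89 and 2.80 over all enriched clusters of the authors' deposited tables. Where no cluster is listed, little RNA and little binding cannot be told apart without read counts. In the tagged genes themselves, 4 of 5 clusters in the Rbm38 gene were enriched for Rbm38, and in the Puf60 gene 12 of 15 were for Puf60 with exon 5 and 7 of 13 for Puf60 without exon 5. Rbm38 also had 2 clusters in the Puf60 gene, 1 of them enriched, the higher at 4.43 in the authors' deposited table. Neither isoform of Puf60 had a cluster in the Rbm38 gene. RNA of the transgene and of the cell's own gene cannot be told apart in these counts.

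**Figure D1:**
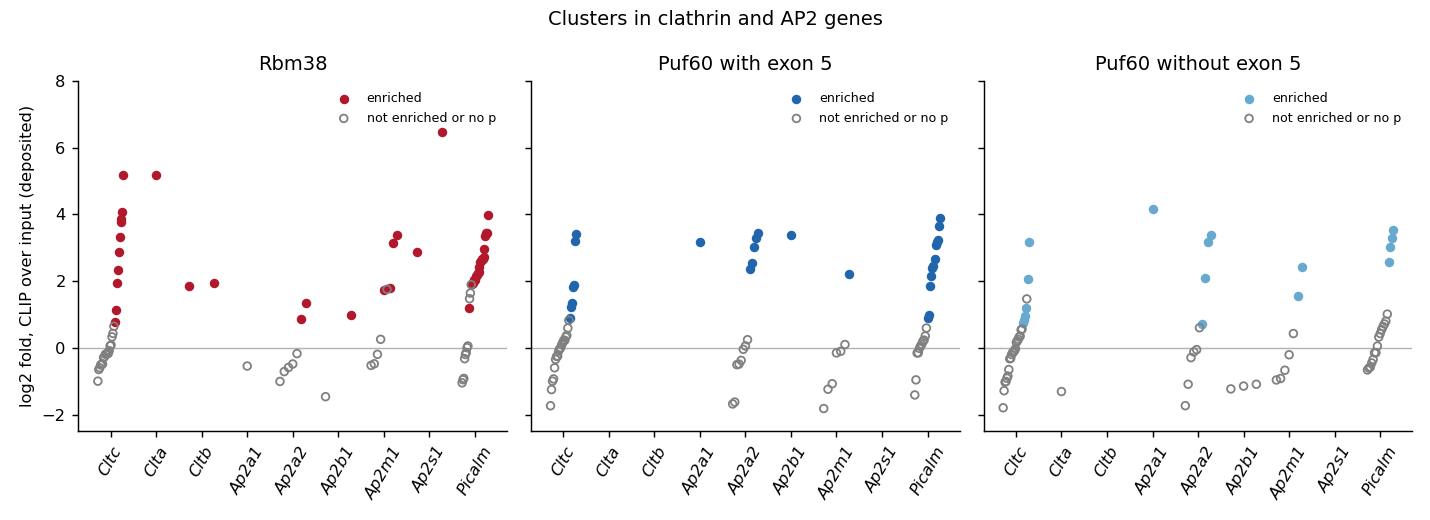
Log2 fold of CLIP over input, from the authors' deposited tables, for every sense cluster of the 9 genes (horizontal axis), with Rbm38, Puf60 with exon 5 and Puf60 without exon 5 in panels from left to right. Filled points are enriched and open points are not or have no p; Ap2s1, Cltc and Clta reach 6.49, 5.18 and 5.17 for Rbm38, and no Puf60 cluster of the 9 genes exceeds 4.16.

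Rbm38 had an enriched cluster in 8 of the 9 genes, Puf60 with exon 5 in 6 and Puf60 without exon 5 in 5. Among the 6416 protein-coding genes of known strand with a cluster in any table, 68.3%, 44.7% and 45.0% had one. Ordered by their strongest Rbm38 cluster in the authors' deposited table, the genes were Ap2s1 at 6.49, Cltc at 5.18, Clta at 5.17, Picalm at 3.99, Ap2m1 at 3.38, Cltb at 1.93, Ap2a2 at 1.34 and Ap2b1 at 0.98. Cltc and Clta differed by less than 0.01 in this order, and no spread is given to separate any neighbours. Ap2a1 had no enriched Rbm38 cluster. The order for Puf60 with exon 5 was another one in the authors' deposited table: Picalm at 3.88, Ap2a2 at 3.43, Cltc at 3.40, Ap2b1 at 3.39, Ap2a1 at 3.17 and Ap2m1 at 2.22. For Puf60 without exon 5, Ap2a1 led with 4.16 in the authors' deposited table, before Picalm at 3.54, Ap2a2 at 3.38, Cltc at 3.18 and Ap2m1 at 2.41. Set among the genes with an enriched sense cluster, the strongest Rbm38 cluster of Ap2s1 ranked 3 of 4382, that of Cltc 142 and that of Clta 145. The high Rbm38 ranks of Ap2s1 and Cltc, and their place among the 8 genes, follow from the choice of genes and are no result. The best Puf60 ranks of the 9 genes were 1127 of 2868 for Picalm with exon 5 and 829 of 2888 for Ap2a1 without exon 5.

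Cltc (gene 67300, chromosome 11, 86694352 to 86757567, minus strand) encodes the heavy chain, each copy of which is a leg of the trimers that build the lattice. It held 28 Rbm38 clusters, of which 10 were enriched (35.7%), and these lay mainly in 2 groups near the end of the gene. In the last 2000 nt stood 2 clusters of 400 nt each. In the authors' deposited table the first, at 86694636 to 86695035, had a log2 fold of 5.18 and the second, at 86695186 to 86695585, one of 3.86, both with an adjusted p written as 0. Further inside, between 5058 and 6633 nt from the 3′ end, 6 clusters were enriched with log2 folds of 1.95 to 4.06 in the authors' deposited table. The strongest of these spanned 300 nt, from 86699736 to 86700035. Neither Puf60 table listed any cluster in the stretch from 5000 to 7000 nt. That stretch was drawn around the 6 Rbm38 clusters, and Puf60 had only 26 and 28 clusters over the whole gene, so its lack there is a description. The other enriched Rbm38 clusters of Cltc were weaker, at 0.77 and 1.14 in the authors' deposited table, 17558 and 38208 nt from the 3′ end. The 18 remaining ones lay between -0.998 and 0.65 in the authors' deposited table, and 1 of them had no p. In all, enriched Rbm38 clusters covered 1550 nt of the 63216 nt of Cltc.

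At the 3′ end of Cltc, where Rbm38 was strongest, both Puf60 tables listed clusters as well, none of them enriched. In the last 2000 nt, Puf60 with exon 5 had 5 clusters, at -0.25 to 0.33 in the authors' deposited table. Puf60 without exon 5 also had 5 there, at -1.80 to 0.17 in the authors' deposited table. Over all sense clusters in single protein-coding genes, this window held 15.1% of enriched and 29.8% of other clusters with exon 5. Without exon 5 it held 15.2% and 34.8%, so Puf60 clusters that are not enriched there are not particular to Cltc. The Puf60 sites of Cltc lay further inside the gene. With exon 5, 7 of 26 clusters were enriched, led by 3.40 at 86735236 to 86735285 and 3.20 at 86711986 to 86712035 in the authors' deposited table. Without exon 5, 6 of 28 were enriched, led by 3.18 at 86735286 to 86735335 and 2.07 at 86707236 to 86707285 in the authors' deposited table. The leading clusters of the isoforms adjoin each other with no shared base, 40908 and 40958 nt from the 3′ end. One enriched cluster of Puf60 with exon 5 lay at the start of the gene, at 86757386 to 86757485, with its centre 132 nt from the 5′ end. There Rbm38 had 0.65, Puf60 with exon 5 had 1.83 and the shorter cluster of Puf60 without exon 5 had 1.47 in the authors' deposited tables, and the call was enriched with exon 5 alone. The Rbm38 cluster and that of Puf60 without exon 5 carried p-values of 9.18e-05 and 3.05e-09 beside an adjusted p of 1 in the authors' deposited tables. The 23 bases of it that a RefSeq window (GRCm38.p6) covers are shown because they are the only stretch of a Cltc cluster with sequence at hand. On the Cltc strand, chr11:86757463-86757485, 16 of the 23 are pyrimidines, and capitals mark bases under the clusters of Rbm38 and of Puf60 with exon 5. That of Puf60 without exon 5 ends before them.
Cltc 5′ cluster: TCTCCCGGCCCCTGGAGCCTCCG

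**Figure D2:**
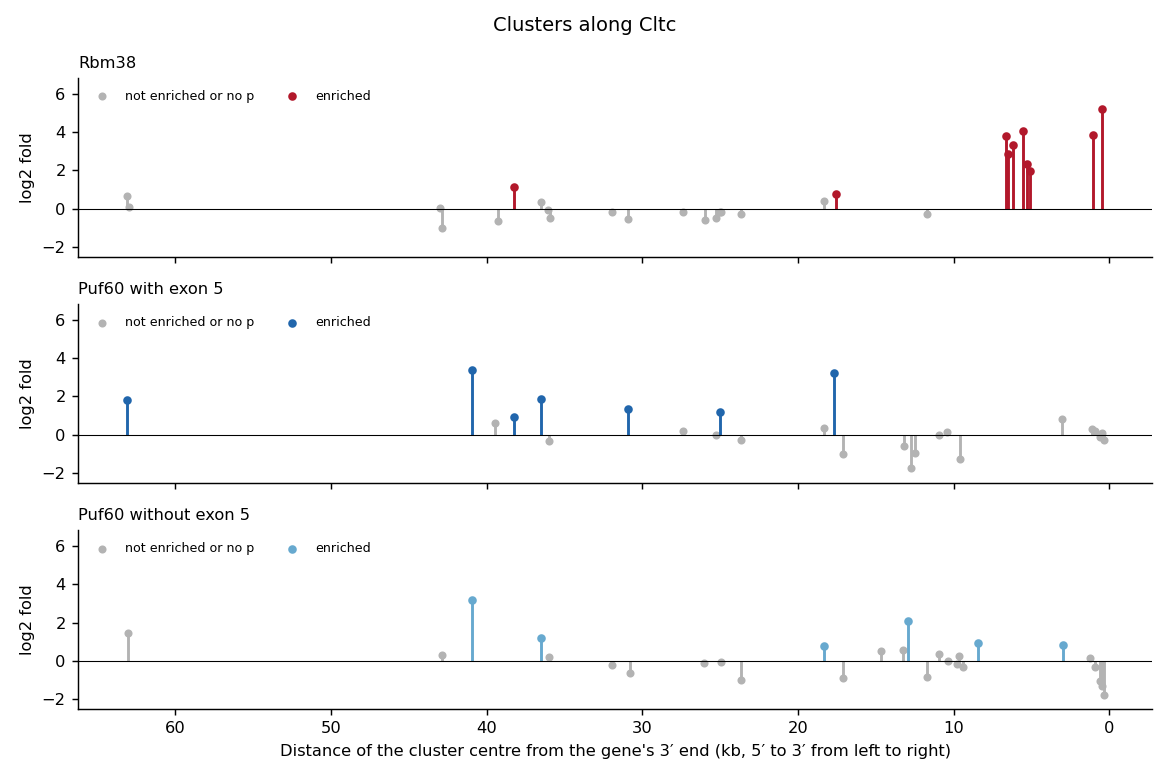
Log2 fold of CLIP over input, from the authors' deposited tables, against the distance of each Cltc cluster from the 3′ end of the gene in kb, with Rbm38, Puf60 with exon 5 and Puf60 without exon 5 from top to bottom. Coloured stems are enriched and grey ones are not or have no p; Rbm38 has 8 enriched stems within 7000 nt of the 3′ end, and the highest Puf60 stems stand 40908 and 40958 nt from it.

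The genes whose strongest sense clusters were most like those of Cltc were Arl8a, Anp32a and Hsp90b1, by Euclidean distance over the 3 tables among 3296 protein-coding genes listed in all of them. Arl8a had 5.17 for Rbm38, 3.28 for Puf60 with exon 5 and 3.09 for the other isoform in the authors' deposited tables, a distance of 0.15 from Cltc. For Anp32a the values were 5.42, 3.33 and 3.27, and for Hsp90b1 they were 5.18, 3.34 and 3.44, in the same order in the authors' deposited tables. Their distances from Cltc were 0.26 and 0.27.

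The light chain genes were listed almost only for Rbm38. Light chains bind the heavy chain and regulate the assembly of the lattice. Clta (gene 12757, chromosome 4, 44003816 to 44032846, plus strand) had 1 Rbm38 cluster, at 44032651 to 44032750, with a log2 fold of 5.17 and an adjusted p of 5.06e-196 in the authors' deposited table. Its centre lay 146 nt from the 3′ end. Puf60 with exon 5 had no cluster in Clta, and the 1 cluster of Puf60 without exon 5, at 44032651 to 44032700 inside the Rbm38 cluster, stood at -1.31 in the authors' deposited table and was not enriched. Cltb (gene 74325, chromosome 13, 54592386 to 54611373, minus strand) had 2 enriched Rbm38 clusters of 50 nt and no Puf60 cluster. They lay at 54593686 to 54593735 with 1.93 and at 54593586 to 54593635 with 1.84 in the authors' deposited table, 1324 and 1224 nt from the 3′ end. Both light chain genes held Rbm38 clusters in their last 2000 nt alone.

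The small AP2 subunit gene Ap2s1 (gene 232910, chromosome 7, 16738444 to 16749290, plus strand) held the strongest cluster of the 9 genes. It lay at 16749201 to 16749300, with its centre 40 nt from the annotated 3′ end, and had a log2 fold of 6.49 and an adjusted p written as 0 in the authors' deposited table. A second Rbm38 cluster at 16749001 to 16749100 had 2.86 in the authors' deposited table. The first one ended 10 nt beyond the annotated gene. Only 5 enriched Rbm38 clusters of the whole table had a higher log2 fold. Neither Puf60 table listed a cluster in Ap2s1.

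Ap2m1, the gene of the mu subunit (gene 11773, chromosome 16, 20535480 to 20544909, plus strand), carried enriched clusters of all 3 proteins, centred between 1059 and 2959 nt from its 3′ end. Rbm38 had 4 enriched clusters among 9. In the authors' deposited table these had log2 folds of 3.38 at 20543801 to 20543900, 3.15 at 20542401 to 20542450, 1.79 at 20543601 to 20543750 and 1.74 at 20543351 to 20543550. Among 7 clusters of Puf60 with exon 5, 1 was enriched, with 2.22 at 20543701 to 20543750 in the authors' deposited table. Puf60 without exon 5 had 2 among 7, with 2.41 at 20541901 to 20542000 and 1.54 at 20543501 to 20543750 in the authors' deposited table. The 50 nt from 20543701 to 20543750 were enriched for all 3 proteins. Next to them, at 20543801, Rbm38 had its highest value of 3.38, while Puf60 had 0.10 with exon 5 and -0.92 lacking it in the authors' deposited tables and was not enriched.

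The alpha subunit genes differed from this and from each other. Ap2a1 (gene 11771, chromosome 7, 44900373 to 44929490, minus strand) was the one gene of the 9 whose enriched clusters were of Puf60 alone. Each protein had 1 cluster in it. That of Rbm38, at 44906086 to 44906135, had -0.54 in the authors' deposited table and was not enriched. Puf60 with exon 5 had 3.17 at 44903186 to 44903235, and Puf60 without exon 5 had 4.16 at 44903186 to 44903285, in the authors' deposited tables. They start at the same base, 50 nt wide with exon 5 and 100 nt wide without it, so the values cover different lengths.

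Ap2a2 (gene 11772, chromosome 7, 141562180 to 141633011, plus strand) had 2 enriched Rbm38 clusters among 7, both weak: 1.34 at 141631351 to 141631450 and 0.87 at 141632501 to 141632550 in the authors' deposited table. Puf60 with exon 5 had 5 enriched among 13, at 2.36 to 3.43, and Puf60 without exon 5 had 4 among 10, at 0.73 to 3.38, in the authors' deposited tables. A site at 141616001 to 141616050 was nearly equal between the isoforms, with 3.43 with exon 5 and 3.38 without in the authors' deposited tables, and Rbm38 had no cluster there. The 50 nt from 141631401 to 141631450 were enriched for all 3 proteins, with 1.34 for Rbm38, 3.30 for Puf60 with exon 5 and 2.09 for Puf60 without exon 5, all in the authors' deposited tables. At 141630301 to 141630350, Rbm38 had -0.17 and was not enriched, whereas Puf60 with exon 5 had 2.36 over the same bases in the authors' deposited tables.

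One cluster of Ap2a2 coincided with an annotated microRNA. Puf60 with exon 5 was enriched at 141620751 to 141620800, with a log2 fold of 3.03 and an adjusted p of 1.50e-25 in the authors' deposited table. Of its 50 nt, 41 lay on the hairpin of Mir7063, on the same strand. It was the only one of the 87 enriched member clusters that lay on a second annotated gene. Reads of the host transcript and of the hairpin cannot be told apart here. Neither Rbm38 nor Puf60 without exon 5 had a cluster on it. Of 1005 hairpins in the RefSeq table (GRCm38.p6), 15 lay under an enriched cluster of Rbm38 (1.49%), 15 under one of Puf60 with exon 5 (1.49%) and 17 under one of Puf60 without exon 5 (1.69%). The hairpin, chr7:141620701-141620791 on the plus strand, is shown because Puf60 is known for pyrimidine tracts. Capitals mark the bases under the cluster, of which 27 of 41 (65.9%) are C or U, against 18 of the 50 other bases (36.0%). The arms of a hairpin pair with each other, so these shares are not independent. A link between the bases and Puf60 was not tested. In the 2 mature forms, capitals mark the seed, bases 2 to 8.
Mir7063 hairpin: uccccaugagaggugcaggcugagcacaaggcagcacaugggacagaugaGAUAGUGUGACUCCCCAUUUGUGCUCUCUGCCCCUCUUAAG
mmu-miR-7063-5p: aUGAGAGGugcaggcugagcaca
mmu-miR-7063-3p: uGCUCUCUgccccucuuaag

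The 3p form lay wholly under the cluster and the 5p form outside it. Their seeds differ, so they form no shared seed group.

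Ap2b1, the gene of the beta subunit (gene 71770, chromosome 11, 83298719 to 83405035, plus strand), is the longest of the 9 genes and had few clusters. Rbm38 had 2, of which the one at 83402751 to 83402800 was enriched with 0.98 and the one at 83333651 to 83333700 was not, with -1.46, in the authors' deposited table. The single cluster of Puf60 with exon 5 was enriched with 3.39 at 83364751 to 83364800 in the authors' deposited table. Puf60 without exon 5 had 3 clusters elsewhere, at -1.09 to -1.23 in the authors' deposited table, none enriched. With no cluster of the other isoform at the site, the difference has no second value to set beside it.

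Picalm (gene 233489, chromosome 7, 90130192 to 90209447, plus strand) held the most enriched clusters of the 9 genes for Rbm38 and for Puf60 with exon 5, 21 of 32 (65.6%) and 12 of 23 (52.2%). Puf60 without exon 5 had 4 of 19 (21.1%). Most of its enriched Rbm38 clusters stood in 3 stretches of the gene, and most of those of Puf60 with exon 5 in the inner 2 of them. The bounds of the inner 2 were set with the clusters in view. In the last 2000 nt, 5 of 6 Rbm38 clusters were enriched at 2.05 to 3.44, whereas none of 7 of Puf60 with exon 5 (-0.96 to 0.36) and none of 6 of Puf60 without exon 5 (-0.66 to 0.05) were, in the authors' deposited tables. In the tables at large, too, this window held a smaller share of enriched Puf60 clusters than of other ones, as given for Cltc. From 13000 to 17000 nt before the 3′ end, 6 of 10 Rbm38 clusters were enriched, 7 of 9 of Puf60 with exon 5 and 2 of 7 of Puf60 without exon 5. From 27000 to 32000 nt, the counts were 6 of 8, 3 of 3 and 1 of 2 in this order of proteins.

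The strongest Rbm38 cluster of Picalm, with 3.99 at 90178201 to 90178250 in the authors' deposited table, had no Puf60 cluster on it. The strongest of Puf60, at 90194101 to 90194250 for both isoforms, had 3.88 with exon 5 and 3.54 without, and Rbm38 had 2.59 at 90194101 to 90194200, in the authors' deposited tables. The 50 nt from 90178451 to 90178500 were also enriched for all 3 proteins, with 2.98 for Rbm38, 3.64 for Puf60 with exon 5 and 3.29 for Puf60 without exon 5, all in the authors' deposited tables. Rbm38 had further enriched clusters near the start of the gene, 2.03 at 90131001 to 90131050 and 2.68 at 90131401 to 90131450 in the authors' deposited table, where no sense Puf60 cluster was listed. Between 62322 and 62372 nt from the 3′ end only Puf60 was listed, with 3.24 at 90147051 to 90147100 with exon 5 and 3.03 at 90147101 to 90147150 without in the authors' deposited tables, again adjoining with no shared base.

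**Figure D3:**
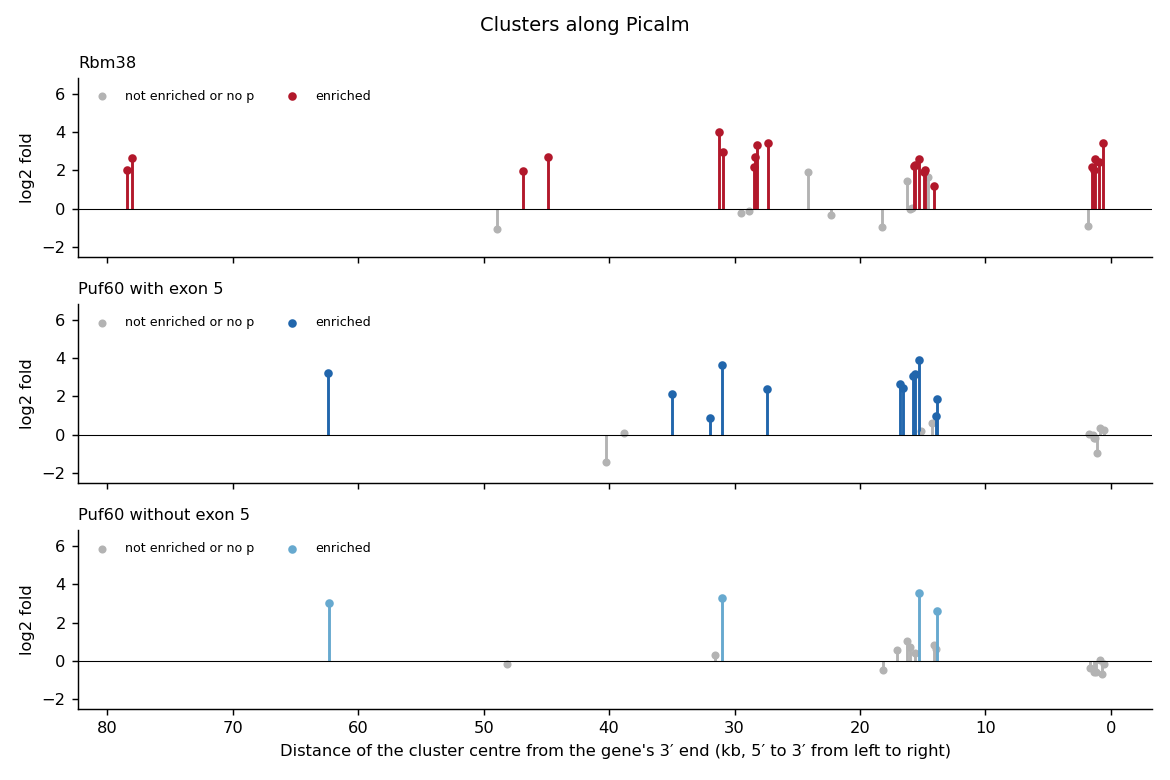
Log2 fold of CLIP over input, from the authors' deposited tables, against the distance of each sense Picalm cluster from the 3′ end of the gene in kb, with Rbm38, Puf60 with exon 5 and Puf60 without exon 5 from top to bottom. Coloured stems are enriched and grey ones are not or have no p; in the last 2000 nt 5 Rbm38 stems are enriched and the Puf60 stems, between -0.96 and 0.36, are not.

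Position along the gene was not itself part of the choice of genes. The strongest Rbm38 sites of Ap2s1 and Cltc, which the choice rested on, lay 40 and 483 nt from the 3′ end. The Rbm38 shares below are therefore a description. Across the 9 genes, 17 of 43 enriched Rbm38 clusters (39.5%) lay within 2000 nt of the 3′ end, against 2 of 41 that were not enriched (4.88%). For Puf60 with exon 5 it was 2 of 27 enriched (7.41%) and 18 of 44 others (40.9%), and for Puf60 without exon 5 it was 2 of 17 (11.8%) and 16 of 52 (30.8%). Over all sense clusters in single protein-coding genes the shares were 43.8% of enriched and 10.2% of other clusters for Rbm38, 15.1% and 29.8% for Puf60 with exon 5 and 15.2% and 34.8% for Puf60 without exon 5. The order of enriched and other clusters was thus the same in the 9 genes as in the tables at large for each protein. Clusters of 1 gene are not independent, so no test was made. The enriched Puf60 clusters in this window were those of Ap2m1 and Ap2a2 shared with Rbm38, described above. By gene, the 17 Rbm38 clusters were 5 in Picalm, 3 in Ap2m1, 2 each in Cltc, Cltb, Ap2a2 and Ap2s1, and 1 in Clta.

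**Figure D4:**
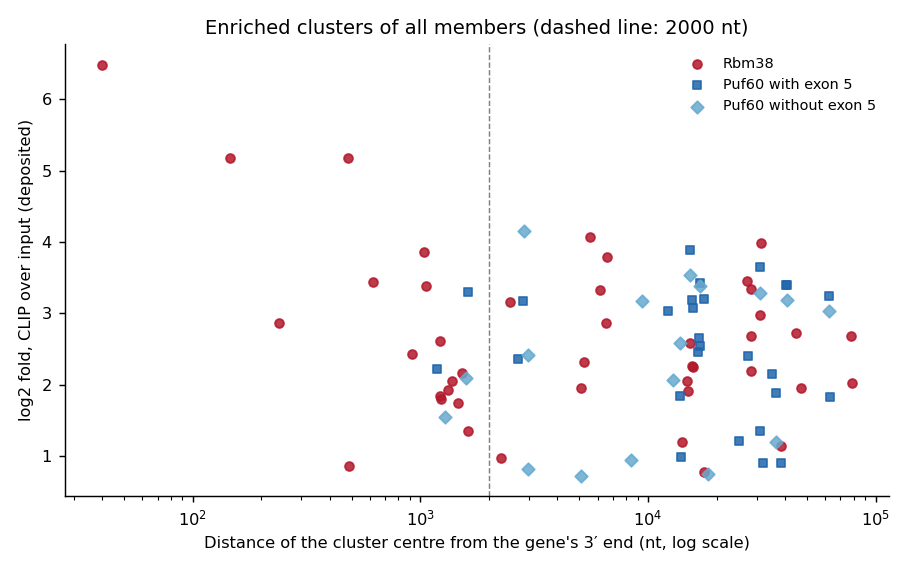
Log2 fold of CLIP over input, from the authors' deposited tables, of the 87 enriched clusters of the 9 genes against their distance from the 3′ end in nt, on a log axis. Circles are Rbm38, squares Puf60 with exon 5 and diamonds Puf60 without exon 5; left of the dashed line at 2000 nt stand 17 Rbm38 and 4 Puf60 clusters, and the 3 highest values are Rbm38 clusters within 500 nt of the 3′ end.

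Sites of Rbm38 and Puf60 were shared about as often in the 9 genes as in the tables at large. Of the 43 enriched Rbm38 clusters, 6 (13.95%) overlapped an enriched cluster of Puf60 with exon 5, and 5 (11.6%) one of Puf60 without exon 5, by at least 1 nt on the same strand. Over all enriched Rbm38 clusters the shares were 12.4% and 11.5%. Seen from Puf60, this was 6 of 27 (22.2%) and 4 of 17 (23.5%), against 22.2% and 20.0% over all its enriched clusters. Stretches enriched for all 3 proteins numbered 4, 2 in Picalm, 1 in Ap2a2 and 1 in Ap2m1, or 9.30 per 100 enriched Rbm38 clusters, against 9.34 over the whole tables. Where Rbm38 and Puf60 with exon 5 both listed a cluster, 27 pairs matched by largest mutual overlap. Of these, 6 were enriched in both, 9 for Rbm38 alone, 5 for Puf60 with exon 5 alone and 7 in neither. Over the whole tables the pairs numbered 14851, with 2833, 5293, 2540 and 4185 in the same order, so that 22.2% of the member pairs and 19.1% of all pairs were enriched in both. With Puf60 without exon 5, 25 pairs gave 4, 9, 3 and 9, and the 16078 pairs of the whole tables gave 2574, 6572, 2619 and 4313, which is 16.0% in both for each. The widest gaps in either direction were the Clta pair, 6.48 higher for Rbm38 than for Puf60 without exon 5, and the Ap2a2 pair at 141630301, at -2.53 for Rbm38 minus Puf60 with exon 5, as log2 differences between the authors' deposited tables.

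The Puf60 isoforms matched at 28 pairs of clusters in 5 of the 9 genes. Of these pairs, 8 were enriched for both isoforms, 3 for the one with exon 5 only, 3 for the one without it only and 14 for neither. Over the whole tables, 20187 pairs gave 8822, 1106, 850 and 9409 in this order, so that 28.6% of the member pairs and 43.7% of all pairs were enriched for both. One of the pairs enriched without exon 5 alone, in Cltc, had no p with exon 5. The log2 fold with exon 5 minus that without had a median of 0.36 and a range of -1.16 to 1.55, and was above 0 at 19 of the 28 pairs, beside a median of 0.10 and 56.4% of the pairs over the whole tables, all from the authors' deposited tables. By overlap, 8 of the 27 enriched clusters of the isoform with exon 5 (29.6%) met 8 of the 17 of the other isoform (47.1%), against 64.2% and 63.7% over all enriched clusters of these tables. These lower shares rest on few clusters of few genes and were not tested. The widest difference with exon 5 higher was at the 3′ end of Cltc, 86694686 to 86694735, with -0.25 with exon 5 and -1.80 without in the authors' deposited tables, and neither was enriched. Among pairs enriched in at least 1 table, the widest were in Cltc at 86719336 to 86719385 (1.21 with exon 5, enriched, and -0.09 in a wider cluster without, not enriched), Ap2a2 at 141631351 (3.30 and 2.09) and Ap2a1 (3.17 and 4.16) in the authors' deposited tables. These last 3 pairs differ in extent, and no spread is given to test them.

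**Figure D5:**
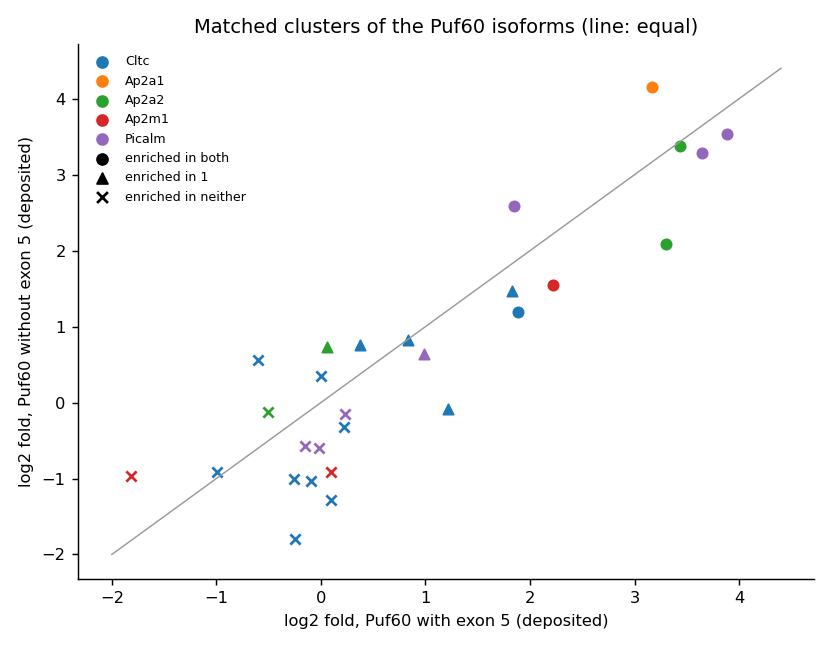
Log2 fold of CLIP over input for the 28 matched clusters of the isoforms, Puf60 with exon 5 on the horizontal and Puf60 without exon 5 on the vertical axis, from the authors' deposited tables, coloured by gene. Circles are enriched in both, triangles in 1 and crosses in neither; the 8 circles lie above 1 on both axes, and 19 of the 28 points lie below the line of equal values.

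Other genes of endocytosis and coat adaptors were taken from a list of 72, of which 60 had a strand in the RefSeq promoter table. Of these, 34 had an enriched sense cluster of Rbm38 (56.7%), 24 of Puf60 with exon 5 (40.0%) and 23 of Puf60 without exon 5 (38.3%). The background of 68.3%, 44.7% and 45.0% counts listed genes alone, while the 60 include genes with no cluster, so the shares are not on the same footing. Among all 17492 protein-coding genes with a strand, listed or not, 4382, 2868 and 2888 had one in this order of proteins. These are lower shares than in the 60. The list was not matched to those genes by expression, and the difference was not tested. Rbm38 had its highest log2 folds at Dnm3 (5.30), a dynamin that cuts vesicles from the membrane, Snap91 (5.12), the neuronal relative of Picalm, Necap1 (5.05), which binds AP2, and Gga2 (4.97), a clathrin adaptor of the Golgi, in the authors' deposited table. The cluster of Necap1 lay 68 nt and that of Snap91 487 nt from the 3′ end, whereas that of Gga2 lay 2838 nt and that of Dnm3 236410 nt away.

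For Puf60 with exon 5 the highest were Itsn2 (5.92), an endocytic scaffold, Ap4e1 (5.69), a subunit of the adaptor AP4, Tnk2 (5.57), a kinase that binds clathrin, and Eps15l1 (5.48), an endocytic scaffold, in the authors' deposited table. Without exon 5 they were Ap4e1 (6.14), Eps15l1 (6.11), Ap3s2 (5.57), a subunit of the adaptor AP3, and Itsn2 (5.33), in the authors' deposited table. Each of these exceeded the highest Puf60 value of the 9 genes, 4.16 at Ap2a1 in the authors' deposited table. They are the highest of a longer list, so this shows no difference between the list and the 9 genes. Among cargo receptors, 1 of 4 genes had an enriched Rbm38 cluster. That gene, Tfrc, the transferrin receptor taken up through clathrin pits, had 8 enriched clusters among 8, the highest at 4.13 in the authors' deposited table, and is named here after its values were seen. For Puf60 with exon 5 the 1 cargo receptor was Igf2r, and for Puf60 without exon 5 the 2 were Igf2r and Tfrc, also named after their values were seen. In Tfrc, only 1 of 20 clusters of Puf60 without exon 5 was enriched, at 0.75 with an adjusted p of 0.030 in the authors' deposited table. None of the 15 Tfrc clusters of Puf60 with exon 5 was enriched.

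Near the threshold, the enriched member clusters of highest adjusted p were at Ap2a2 (0.0145) and Cltc (0.0132), both for Puf60 without exon 5, in the authors' deposited table. The nearest one past it was at Picalm, 90195451 to 90195500, with 0.0763 for Puf60 without exon 5 in the authors' deposited table. A group of clusters had a p-value under 0.05 beside an adjusted p of 1: 6 for Rbm38, 2 for Puf60 with exon 5 and 8 for Puf60 without exon 5 in the authors' deposited tables. Many clusters carried a pair of log2 fold and p-value found at other clusters too, 62 of 84, 55 of 71 and 58 of 69. These included 24, 19 and 12 of the enriched ones, in the authors' deposited tables. A single such pair was shared by up to 78, 245 and 173 clusters in the same order of proteins. The shares of repeated pairs, and of an adjusted p of 1 beside a p-value under 0.05, were not counted over the whole tables. Whether either is particular to these genes was therefore not tested.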

How the data were processed

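RNA bound by each Flag-tagged protein was sequenced after partial RNase digestion and size selection, per the labels' protocols. TopHat, edgeR, NCBIM37 and mm10 appear in the submitters' processing notes without versions or roles. Reads began with random bases, per the labels. The sources used do not say how clusters were called, whether the random bases served to collapse duplicate reads or how replicates were combined.

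For each protein the authors deposited a table with a log2 fold change, read here as CLIP over input (the direction is not stated), and a p-value and adjusted p-value, per the file headers. They hold 0 further columns of values and no values per library. The tests on counts foreseen for such values were not made, and the depth of each library is unknown.

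Strand is not written in the tables. Starts modulo 50 nt are 0, read as the plus strand, or 35, read as minus. Of the enriched clusters in genes whose strand RefSeq's promoter table gives, 92.9%, 91.9% and 92.3% had the gene's strand. Positions are 1-based on mm10, and gene bodies come from RefSeq on GRCm38.p6, the same build, without exons. The centre is the middle base. A pair of clusters from 2 tables counted as matched if each overlapped no other cluster of the other table by more bases. Scripts ran in Python 3.11.15 with pandas 2.3.3 and were tested on simulated clusters. Alternatives were the threshold, the adjustment, a minimum fold, gene assignment, strand, window and overlap.

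Genes, lists and thresholds were chosen with earlier results of these data known. The rule for names takes all 9 genes, their strongest enriched clusters, the 4 highest other endocytosis genes per protein and the 3 genes nearest to Cltc. Of the list of other endocytosis genes, 12 had no strand in RefSeq's promoter table and were not counted.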

Additional observations from a re-analysis of the deposited data

Results flagged for a closer look

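One Rbm38 cluster was on the strand opposite to Picalm, outside the sense clusters reported above, and was enriched. It lay at chromosome 7, 90208986 to 90209035, 437 nt from the 3′ end of the gene, with a log2 fold of 3.29 and an adjusted p of 2.85e-148 in the authors' deposited table. It overlapped the sense Rbm38 cluster that ends at 90209000. At the same place, Puf60 with and without exon 5 had antisense clusters of 0.25 and -0.68 in the authors' deposited tables, neither enriched.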

How the results depend on the processing

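No paired analysis was possible because the tables hold no values per library, so leaving out replicates and the replicate block were not run. The counts of enriched clusters in the 9 genes stayed within 1.5 times under all 5 alternatives: 40 to 48 for Rbm38, 24 to 28 for Puf60 with exon 5 and 13 to 22 for Puf60 without exon 5. With a window of 1000 nt at the 3′ end, 7 enriched clusters remained counted for Rbm38 and 0 for each isoform of Puf60. With 5000 nt, Puf60 with exon 5 had 4 and Puf60 without exon 5 had 5. Counting all listed clusters within 2000 nt gave 20 and 18 for these, and 27, 27 and 30 clusters shared between Rbm38 and Puf60 with exon 5, Rbm38 and Puf60 without exon 5, and the isoforms. Requiring 2 enriched clusters per gene left 20, 13 and 12 other endocytosis genes. Of 135 recounts by single gene, 131 stayed within 1.5 times. A log2 fold of at least 1 left 1 Rbm38 cluster in Ap2a2, 0 in Ap2b1 and 3 of Puf60 without exon 5 in Cltc. Adjusting the deposited p-values anew gave 7 of Puf60 without exon 5 in Picalm, against 4. Depth is unknown, so unlisted clusters set no limit.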
